A study of Mus musculus with 18 samples.

Results

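The AP-1 family genes described here were Fos, Fosb, Fosl1 and Fosl2 of the Fos family, Jun, Junb and Jund of the Jun family, and Atf3 of the ATF family. Their names alone decide membership, though the family was picked with earlier results of these data known. All 8 names were found among the 54429 names of the FLAG-EED count table and the 54352 names of the wildtype count table. All 8 also passed the filter on low counts, as did 19092 genes in the fit of the 16 FLAG-EED libraries and 19296 genes in the fit of all 18 libraries. The lowest count of any member in any library was 6, for Fosb.

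The samples were RNA-seq libraries of mouse embryonic stem cells (mESCs) and of embryoid bodies, which are clumps of differentiating cells grown in suspension. EED belongs to the core of the Polycomb repressive complex 2, and by its title the series asks how acetylation of EED by CBP and P300 bears on that complex and on differentiation. The 18 libraries form 9 groups of 2. In the knock-in cells EED had a FLAG tag and either its wildtype sequence (FLAG-WT) or K19R, an arginine in the place of a lysine (K19R cells). FLAG-WT and K19R cells were collected on day 0 as mESCs grown with leukemia inhibitory factor (LIF) and 2i, which is the MEK inhibitor PD0325901 with the GSK3 inhibitor CHIR99021. They were collected again as embryoid bodies at days 2, 6 and 10, after LIF and 2i had been left out of the medium. The ninth group was wildtype mESCs without the knock-in, grown with LIF but without 2i. All mESCs shared a gelatin-coated surface and a medium with 15% serum. The sources used here give no number of clones behind each line, and no label names a separate culture for each replicate, so p-values cover only the spread between these libraries, which may be technical.

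AP-1 is not a single protein but a set of dimers. Jun proteins pair with each other, with Fos proteins or with ATF proteins through a leucine zipper, and the adjoining basic region binds DNA at a short palindromic element; Fos proteins do not form stable dimers with themselves. Many of the genes are immediate early genes, whose transcription is switched on within minutes by serum, growth factors or stress through the ERK, JNK and p38 kinases, while Jund is known for a steadier level. In mouse cells, Jun is known to impede reprogramming to pluripotency.

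Because the members are known to be induced through short elements near their start sites, bases upstream of the RefSeq start are printed for 4 members with a searched element there, on GRCm38.p6 and on the strand of the gene. For Fos, Jun and Junb they run up to the start; for Fosb they stop 6 bases short of it, at the start of the deposited annotation. Capitals mark TGACG, the core of the cAMP response element, in Fos, Fosb and Junb, and TGACATCA, the AP-1-like element of the Jun promoter, in Jun.
Fos, chr12:85473780-85473889 (+): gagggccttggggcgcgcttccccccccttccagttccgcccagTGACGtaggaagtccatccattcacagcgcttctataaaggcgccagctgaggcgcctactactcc
Fosb, chr7:19310052-19310155 (-): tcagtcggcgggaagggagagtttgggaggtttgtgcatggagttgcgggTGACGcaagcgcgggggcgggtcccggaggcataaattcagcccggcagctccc
Jun, chr4:95052223-95052332 (-): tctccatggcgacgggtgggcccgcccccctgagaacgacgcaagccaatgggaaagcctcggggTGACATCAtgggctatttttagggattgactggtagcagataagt
Junb, chr8:84978749-84978858 (-): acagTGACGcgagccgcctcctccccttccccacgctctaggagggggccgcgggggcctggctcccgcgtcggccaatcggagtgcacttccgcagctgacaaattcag

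RefSeq held windows of 300 bases (250 before the start and 50 from it on) for 7 of the 8 members; Fosl1 was the other. TGACG on either strand stood in 4 of these 7 windows (Fos, Fosb, Junb and Atf3) and in 20.8% of all 32851 promoter windows. Fos held it 62 to 66 and again 125 to 129 bases upstream of its RefSeq start, Fosb 56 to 60 bases and Junb 102 to 106 bases upstream. TGACATCA was in the Jun window, 38 to 45 bases upstream, and in 3.62% of all windows. The longer palindromes TGACGTCA, of which TGACG is a part, and TGACTCA, the consensus AP-1 site, were in 0 of the 7 windows and in 1.79% and 5.2% of all windows. These matches describe the letters only. The deposited data hold no measurement of binding at these elements.

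In the deposited GRCm38 annotation, Fos lies at chr12:85473890-85477273 (+), Fosb at chr7:19302696-19310051 (-), Fosl1 at chr19:5447703-5455945 (+) and Fosl2 at chr5:32135801-32157842 (+). Jun lies at chr4:95049034-95052222 (-), Junb at chr8:84974484-84978718 (-), Jund at chr8:70698949-70700616 (+) and Atf3 at chr1:191170296-191218039 (-). Counts are over all annotated exons, untranslated parts included, and were made without a strand option, so 3 members share exonic bases with a gene on the opposite strand. Jun shares 232 bases with Junos, which had at most 26 counts in a FLAG-EED library, and Junb shares 173 bases with Prdx2, which had up to 8244. Of the 1668 exonic bases of Jund, 877 are shared with Gm11175, which had 0 counts in every FLAG-EED library. These 3 genes were not read in the wildtype mESC libraries. Read pairs within such shared bases fit both genes and were left out at the default setting of the counting tool, so the level of Jund per length is a lower limit.

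The wildtype mESC libraries held 14190166 and 37375083 counts in total, and those of the FLAG-EED cells between 20158077 and 28917558. The labels were checked against markers. The 5 pluripotency markers (Pou5f1, Nanog, Sox2, Zfp42 and Esrrb) summed to between 4469 and 4739 CPM (counts scaled to the library size) in the day 0 cells of both lines. On day 10 they summed to 51.5 and 53.2 CPM in FLAG-WT and to 468 and 588 CPM in K19R. The 8 endoderm markers (Gata4, Gata6, Sox17, Foxa2, Afp, Ttr, Apoa1 and Alb) went the other way, from 10.9 and 84.0 CPM in FLAG-WT on day 0 to 26109 and 26995 CPM on day 10, and from 7.83 and 7.90 CPM to 14344 and 15769 CPM in K19R. Mitochondrial genes took 0.818% to 2.50% of the counts, most in FLAG-WT on day 6.

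Each of the 8 AP-1 genes was lower in mESCs and on day 2 than later, and all 8 rose between day 2 and day 6 in both lines. In FLAG-WT most went on rising to day 10, while in K19R 6 of the 8 stood lower than in FLAG-WT on day 6 and most fell again. By day 10 all 8 were lower in K19R than in FLAG-WT, from 2.32-fold for Jun to 12.3-fold for Fosb. On day 2 the order was mixed: Fos, Fosb, Jun and Jund were higher in K19R, and Atf3 and Fosl2 were lower. Levels are given as CPM after scaling by trimmed mean of M-values (TMM) factors, for the first and the second library of each group. As these are bulk samples, fewer cells of a type and less RNA per cell cannot be told apart.

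**Figure D1:**
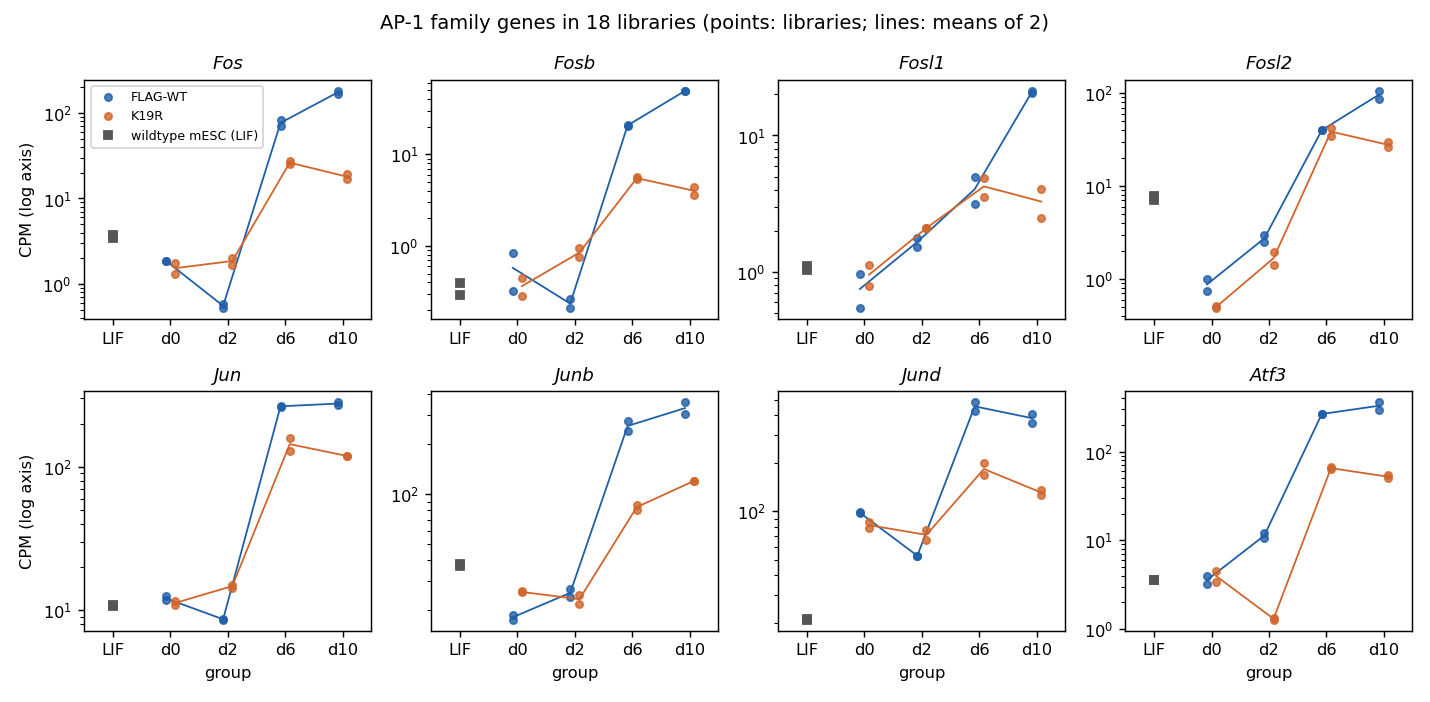
CPM of each AP-1 gene (log axis) in the wildtype mESCs (LIF) and by day (d) in FLAG-WT and K19R; points are libraries and lines join the means of 2. For Fos, the FLAG-WT line climbs from 0.558 CPM on day 2 to 174 CPM on day 10, while the K19R line ends at 17.9 CPM.

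Fos, the founding member of the family and a classic immediate early gene, was read at 1.88 and 1.88 CPM in FLAG-WT cells on day 0, 0.523 and 0.593 on day 2, 70.8 and 81.8 on day 6 and 166 and 182 on day 10. In K19R it was read at 1.75 and 1.32 CPM, then 2.04 and 1.68, then 25.0 and 27.4, and on day 10 at 19.1 and 16.8. Wildtype mESCs had 3.44 and 3.71 CPM. From low to high the groups were FLAG-WT day 2, K19R day 0, K19R day 2 and FLAG-WT day 0, wildtype mESCs, K19R day 10, K19R day 6, FLAG-WT day 6 and FLAG-WT day 10. Only the neighbours among K19R day 0, K19R day 2 and FLAG-WT day 0 overlapped; the values of day 6 and day 10 lay apart from all others in both lines.

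Fosb, whose product can take the place of Fos in dimers with Jun proteins, was close to the limit of detection early on. It had 0.834 and 0.320 CPM in FLAG-WT on day 0, 0.261 and 0.209 on day 2, 20.3 and 21.1 on day 6 and 48.9 and 49.6 on day 10. The K19R values were 0.447 and 0.282, 0.941 and 0.755, 5.64 and 5.37, and 3.59 and 4.42 CPM. The wildtype mESCs had 0.390 and 0.295 CPM, and these, K19R day 0, FLAG-WT day 0 and K19R day 2 overlapped as neighbours in the order. The 4 late groups followed the same order as for Fos, with no overlap among them.

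Fosl1, which encodes Fra-1, a Fos protein without the transactivation domain of Fos, had 0.542 and 0.959 CPM in FLAG-WT on day 0, 1.79 and 1.53 on day 2, 4.96 and 3.13 on day 6 and 20.6 and 21.3 on day 10. In K19R it had 0.783 and 1.13, 2.11 and 2.09, 3.57 and 4.91, and 4.07 and 2.49 CPM. The wildtype mESCs had 1.04 and 1.11 CPM. FLAG-WT day 10 stood alone at the top, and K19R day 10, FLAG-WT day 6 and K19R day 6 overlapped below it. At the bottom FLAG-WT day 0, K19R day 0 and the wildtype mESCs overlapped.

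Fosl2, which encodes Fra-2, the other Fos-related antigen, had 0.751 and 0.999 CPM in FLAG-WT on day 0, 2.48 and 3.00 on day 2, 40.0 and 39.9 on day 6 and 86.9 and 106 on day 10. K19R had 0.485 and 0.517, 1.95 and 1.41, 34.9 and 42.2, and 29.5 and 26 CPM. In the wildtype mESCs Fosl2 was at 7.86 and 7.13 CPM, above all day 0 and day 2 libraries. K19R day 6 and FLAG-WT day 6 overlapped, and no other neighbours in the order did.

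Jun, the main partner of Fos, had 11.7 and 12.5 CPM in FLAG-WT on day 0, 8.71 and 8.54 on day 2, 261 and 268 on day 6 and 270.4 and 282 on day 10. Its K19R values were 11.5 and 10.9, 15.1 and 14.3, 129 and 159, and 119 and 119 CPM. The wildtype mESCs had 10.9 and 10.6 CPM, overlapping K19R day 0 and no other group. From day 6 on, every FLAG-WT library was above every K19R library.

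Junb, which encodes a Jun protein that often restrains Jun, had 17.4 and 18.7 CPM in FLAG-WT on day 0, 26.6 and 24.1 on day 2, 239 and 276 on day 6 and 302 and 358 on day 10. In K19R it had 25.5 and 25.8, 21.8 and 24.6, 80.6 and 86.3, and 120.0 and 120.4 CPM. The wildtype mESCs had 36.6 and 37.9 CPM. Junb was the only member whose K19R level was higher on day 10 than on day 6, and K19R day 2, FLAG-WT day 2 and K19R day 0 were its only overlapping neighbours.

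Jund, known as the most steadily expressed Jun gene, had 98.5 and 97.7 CPM in FLAG-WT on day 0, 52.8 and 53.0 on day 2, 481 and 426 on day 6 and 357 and 408 on day 10. K19R had 85.4 and 78.8, 66.3 and 76.5, 168 and 200.1, and 126 and 137 CPM. The wildtype mESCs were lowest of all groups, at 21.4 and 21 CPM, and no neighbours in the order overlapped.

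Atf3, which encodes a stress-induced ATF protein that acts downstream of Atf4 and also pairs with Jun proteins, had 3.92 and 3.20 CPM in FLAG-WT on day 0, 10.6 and 12 on day 2, 262 and 268 on day 6 and 298 and 359 on day 10. In K19R it had 4.51 and 3.39, then 1.26 and 1.34, then 63.7 and 66.4, then 54.0 and 49.8 CPM. The wildtype mESCs had 3.57 and 3.57 CPM. K19R day 2 was the lowest group for Atf3 and lay below every mESC library, whereas FLAG-WT day 2 lay above them all.

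The first question of the design is how K19R differed from FLAG-WT at each day. Changes are given as log2 fold changes ± SE from edgeR's two-sided quasi-likelihood test, with p adjusted over all genes tested by Benjamini-Hochberg and a threshold of 0.05. On day 0 only Junb of the 8 members passed, 1.42-fold higher in K19R (log2 change 0.51 ± 0.10, edgeR adjusted p = 0.00155), in a comparison in which 10.5% of all genes tested passed, 5.51% as higher and 4.98% as lower. The other 7 did not pass. Their changes ran from -0.81 ± 0.40 for Fosl2 (adjusted p = 0.214) to 0.31 ± 0.41 for Fosl1 (adjusted p = 0.702). Jund, at -0.26 ± 0.09, missed the threshold at an adjusted p of 0.0666 and passed it in 3 alternatives, at adjusted p = 0.027 with library totals as the only scaling, 0.0306 without the filter and 0.00109 with the 4 day 0 libraries fitted alone.

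On day 2, 6 of the 8 members differed, with 4 higher and 2 lower in K19R, where 41.8% of all genes tested passed, 20% as higher and 21.8% as lower. Fos was 3.3-fold higher (1.72 ± 0.27, edgeR adjusted p = 1.24e-05) and Fosb 3.6-fold higher (1.85 ± 0.42, adjusted p = 0.000921), both from counts of at most 63 per library. Jun was 1.71-fold higher (0.77 ± 0.11, adjusted p = 1.4e-06) and Jund 1.35-fold higher (0.43 ± 0.09, adjusted p = 0.00037). Atf3 was 8.7-fold lower (-3.12 ± 0.17, edgeR adjusted p = 5.3e-14). Fosl2 was 1.64-fold lower (-0.71 ± 0.22, adjusted p = 0.011), and this call was lost without FLAG-WT day 2 replicate 2 (adjusted p = 0.145) or without K19R day 2 replicate 2 (adjusted p = 0.146). Fosl1 at 0.35 ± 0.29 and Junb at -0.13 ± 0.10 did not pass. For all 6 genes, both K19R libraries lay on the same side of both FLAG-WT libraries.

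On day 6, 6 members were lower in K19R and 0 higher, where 58.5% of all genes tested passed, 28.4% as higher and 30.1% as lower. Atf3 was 4.07-fold lower (-2.02 ± 0.09, edgeR adjusted p = 5.04e-16), Fosb 3.76-fold lower (-1.91 ± 0.15, adjusted p = 2.63e-11) and Junb 3.08-fold lower (-1.62 ± 0.08, adjusted p = 1.21e-14). Fos was 2.9-fold lower (-1.54 ± 0.09, adjusted p = 2.73e-13), Jund 2.46-fold lower (-1.30 ± 0.09, adjusted p = 1.21e-12) and Jun 1.83-fold lower (-0.87 ± 0.07, adjusted p = 1.53e-10). Fosl1 (0.05 ± 0.24) and Fosl2 (-0.05 ± 0.11) did not pass, and with library totals as the only scaling Fosl2 was higher in K19R by 0.31 (adjusted p = 0.0167). The median change of the 8 members was -1.42, beside 0.02 for all genes tested.

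By day 10 all 8 members were lower in K19R, where 58.4% of all genes tested passed, 33.2% as higher and 25.2% as lower. In the Fos family, Fosb was 12.3-fold lower (-3.62 ± 0.15, edgeR adjusted p = 2.34e-16), Fos 9.68-fold lower (-3.28 ± 0.10, adjusted p = 3.99e-19), Fosl1 6.36-fold lower (-2.67 ± 0.22, adjusted p = 7.87e-11) and Fosl2 3.48-fold lower (-1.80 ± 0.11, adjusted p = 4.06e-13). The 3 Jun genes were 2.32-fold (Jun, -1.22 ± 0.08, adjusted p = 4.98e-13), 2.75-fold (Junb, -1.46 ± 0.08, adjusted p = 8.9e-14) and 2.92-fold lower (Jund, -1.54 ± 0.09, adjusted p = 7.63e-14). Atf3 was 6.33-fold lower (-2.66 ± 0.09, edgeR adjusted p = 2.49e-18). The median change over the members was -2.23, against 0.13 over all genes tested. For each of the 8 genes both FLAG-WT libraries were above both K19R libraries.

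**Figure D2:**
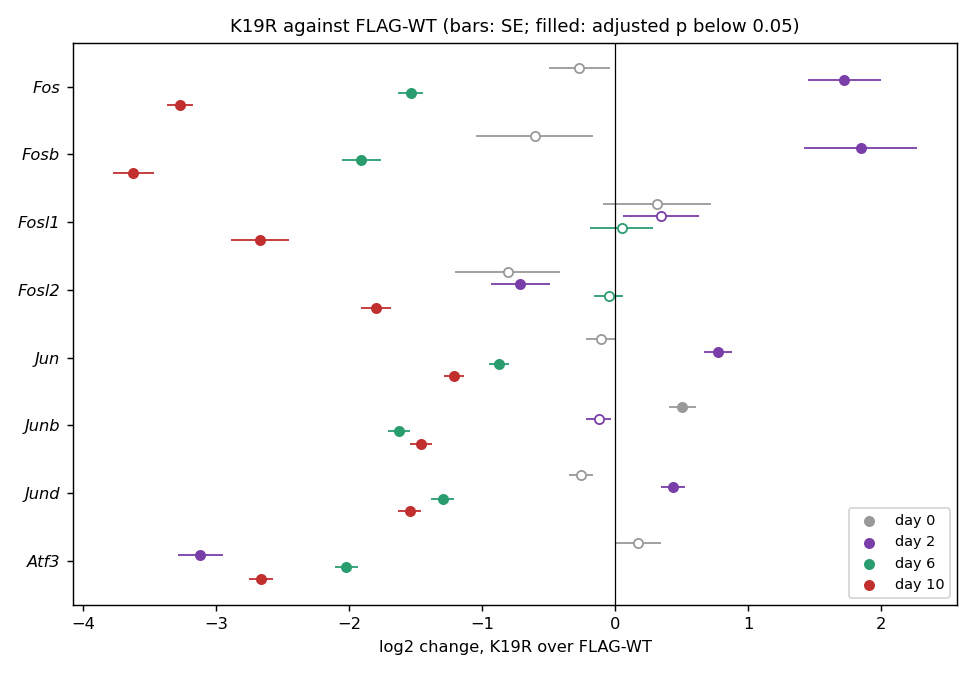
Log2 change of K19R over FLAG-WT (horizontal axis) for each AP-1 gene at each day, with SE bars; filled points had an edgeR adjusted p below 0.05. All 8 day 10 points lie left of 0, and on day 2 Fos (1.72) and Atf3 (-3.12) lie on opposite sides.

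With library totals in place of TMM factors, the median change of all genes shifted by 0.36 on day 6 and by 0.30 on day 10, and the share of passing genes that were higher in K19R rose from 48.6% to 72.9% and from 56.9% to 77.0%. All members that passed on day 6 and day 10 still passed in the same direction.

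Along the course in FLAG-WT, the step from day 0 to day 2, when LIF and 2i were left out, moved the members both ways, with 4 higher and 4 lower on day 2, where 56.1% of all genes tested passed (28.5% rose and 27.6% fell). Atf3 rose 3.19-fold (1.67 ± 0.15, edgeR adjusted p = 1.85e-10), Fosl2 3.14-fold (1.65 ± 0.27, adjusted p = 7.79e-06), Fosl1 2.18-fold (1.12 ± 0.36, adjusted p = 0.00957) and Junb 1.4-fold (0.49 ± 0.10, adjusted p = 0.000203). Fos fell 3.32-fold (-1.73 ± 0.28, edgeR adjusted p = 9.05e-06), Fosb 2.43-fold (-1.28 ± 0.48, adjusted p = 0.0259), Jund 1.85-fold (-0.89 ± 0.09, adjusted p = 3.9e-09) and Jun 1.4-fold (-0.49 ± 0.11, adjusted p = 0.000488). The Fosb call rested on few counts and was lost without FLAG-WT day 0 replicate 1 (-0.45, adjusted p = 0.606) and without either day 2 library (adjusted p = 0.0547 without replicate 1 and 0.149 without replicate 2). The Fosl1 call was lost without FLAG-WT day 0 replicate 1 (0.78, adjusted p = 0.125) or day 2 replicate 1 (1.02, adjusted p = 0.0516).

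In K19R the same step gave 4 higher and 1 lower, where 56.4% of all genes tested passed (28.5% rose and 27.9% fell). Fosl2 rose 3.35-fold (1.74 ± 0.33, edgeR adjusted p = 6.33e-05), Fosb 2.26-fold (1.17 ± 0.39, adjusted p = 0.0118), Fosl1 2.23-fold (1.16 ± 0.32, adjusted p = 0.00356) and Jun 1.31-fold (0.39 ± 0.10, adjusted p = 0.00196). Atf3 fell 3.07-fold (-1.62 ± 0.21, edgeR adjusted p = 2.01e-07). Fos (0.26 ± 0.22), Junb (-0.15 ± 0.10) and Jund (-0.20 ± 0.09, adjusted p = 0.055) did not pass. The Fosb call was lost without K19R day 0 replicate 2 (0.92, adjusted p = 0.099) or day 2 replicate 1 (1.01, adjusted p = 0.0827). That of Fosl1 was lost without K19R day 0 replicate 1 (0.89, adjusted p = 0.0735). Jund passed without K19R day 2 replicate 2 (-0.30, adjusted p = 0.0172), without the filter (adjusted p = 0.023), with relative log expression size factors (adjusted p = 0.0485) and with a replicate block (adjusted p = 0.0472).

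The difference between the lines over this step was tested directly, as the K19R change minus the FLAG-WT change, and 6 of the 8 members passed, 4 with a positive and 2 with a negative difference. Of all genes tested 27.1% passed, 12.7% with a positive and 14.4% with a negative difference. Atf3 changed oppositely in the lines, with a difference of -3.29 ± 0.25 (edgeR adjusted p = 1.79e-10). Jun and Fosb also changed oppositely, with a fall in FLAG-WT and a rise in K19R that each passed. Fos (1.99 ± 0.36, adjusted p = 0.000145), Fosb (2.45 ± 0.62, adjusted p = 0.00383), Jun (0.88 ± 0.15, adjusted p = 7.29e-05) and Jund (0.69 ± 0.13, adjusted p = 0.000179) changed more upward in K19R, and Junb changed more downward (-0.63 ± 0.14, adjusted p = 0.00129). The Fosb difference was lost without FLAG-WT day 0 replicate 1 (1.63, adjusted p = 0.131). Fosl1 (0.03 ± 0.52) and Fosl2 (0.09 ± 0.44) did not pass, and their intervals are wide.

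Between day 2 and day 6 all 8 members rose in FLAG-WT, where 72.6% of all genes tested passed (35.6% rose and 37% fell). Fos rose 134-fold (7.07 ± 0.16, edgeR adjusted p = 1.15e-22), Fosb 87-fold (6.44 ± 0.25, adjusted p = 4e-18) and Jun 30.6-fold (4.94 ± 0.10, adjusted p = 6.53e-24). Atf3 rose 23.3-fold (4.54 ± 0.10, adjusted p = 9.48e-23), Fosl2 14.4-fold (3.85 ± 0.15, adjusted p = 4.28e-18), Junb 10.2-fold (3.35 ± 0.09, adjusted p = 4.6e-21) and Jund 8.57-fold (3.10 ± 0.09, adjusted p = 2.09e-20). Fosl1 rose least, 2.49-fold (1.32 ± 0.27, adjusted p = 0.000125). The median rise of the members was 4.20, beside -0.05 for all genes tested; with library totals only, the median of all genes shifted by -0.40 and the share of passing genes that rose went from 49.1% to 34.6%.

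All 8 rose over this step in K19R as well, where 66.8% of all genes tested passed (34.7% rose and 32.1% fell). Atf3 rose 49.8-fold (5.64 ± 0.14, edgeR adjusted p = 1.44e-21), Fosl2 22.9-fold (4.52 ± 0.16, adjusted p = 7.96e-19), Fos 14-fold (3.81 ± 0.14, adjusted p = 1.61e-18) and Jun 9.78-fold (3.29 ± 0.09, adjusted p = 5.03e-21). Fosb rose 6.44-fold (2.69 ± 0.22, adjusted p = 3.76e-11), Junb 3.6-fold (1.85 ± 0.09, adjusted p = 1.24e-15), Jund 2.58-fold (1.37 ± 0.09, adjusted p = 2.96e-13) and Fosl1 2.03-fold (1.02 ± 0.25, adjusted p = 0.000754). Tested against each other, the lines differed for 7 members, 5 with a smaller rise in K19R and 2 with a larger one, where 44.5% of all genes tested passed (23.2% with a positive and 21.3% with a negative difference). Fosb (-3.76 ± 0.44, adjusted p = 1.03e-07), Fos (-3.26 ± 0.28, adjusted p = 7.21e-10), Jund (-1.73 ± 0.12, adjusted p = 3.07e-11), Jun (-1.65 ± 0.13, adjusted p = 1.29e-10) and Junb (-1.5 ± 0.13, adjusted p = 5.7e-10) rose less in K19R. Atf3 (1.10 ± 0.20, edgeR adjusted p = 8.74e-05) and Fosl2 (0.67 ± 0.25, adjusted p = 0.0303) rose more, both from a lower level on day 2. The Fosl2 difference was lost without any of 5 libraries: FLAG-WT day 2 replicate 2 (adjusted p = 0.197), K19R day 2 replicate 2 (0.207), K19R day 6 replicate 2 (0.1), FLAG-WT day 6 replicate 1 (0.05) or FLAG-WT day 6 replicate 2 (0.0517). Under library totals only, the median of all genes in this contrast shifted by 0.38, and the share of passing genes with a positive difference went from 52.1% to 80.8%.

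The lines already differed for 6 members on day 6, and from then to day 10 they changed differently. In FLAG-WT 6 members rose and 1 fell, where 44.2% of all genes tested passed (21.2% rose and 22.9% fell). Fosl1 rose 5.09-fold (2.35 ± 0.22, edgeR adjusted p = 1.78e-09), Fosl2 2.42-fold (1.28 ± 0.11, adjusted p = 4.68e-10), Fosb 2.38-fold (1.25 ± 0.13, adjusted p = 1.21e-08) and Fos 2.28-fold (1.19 ± 0.09, adjusted p = 3.52e-11). Junb (0.36 ± 0.08, adjusted p = 0.000646) and Atf3 (0.31 ± 0.08, adjusted p = 0.00272) rose by less, Jun did not pass (0.07 ± 0.07, adjusted p = 0.497) and Jund fell (-0.24 ± 0.08, adjusted p = 0.0203). The Atf3 call was lost without FLAG-WT day 10 replicate 2 (0.16, adjusted p = 0.146). That of Jund was lost without FLAG-WT day 6 replicate 1 (-0.16, adjusted p = 0.248), without day 10 replicate 1 (-0.15, adjusted p = 0.241), with relative log expression size factors (adjusted p = 0.0517) and with DESeq2 (adjusted p = 0.0689).

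In K19R, by contrast, 6 members fell from day 6 to day 10 and 1 rose, where 58.5% of all genes tested passed (33.4% rose and 25.2% fell). Fos fell 1.46-fold (-0.55 ± 0.10, edgeR adjusted p = 4.73e-05), Jund 1.4-fold (-0.49 ± 0.09, adjusted p = 2.49e-05), Fosl2 1.39-fold (-0.48 ± 0.11, adjusted p = 0.000691), Fosb 1.38-fold (-0.46 ± 0.17, adjusted p = 0.0256), Atf3 1.25-fold (-0.33 ± 0.09, adjusted p = 0.00264) and Jun 1.21-fold (-0.28 ± 0.08, adjusted p = 0.00275). Junb rose 1.44-fold (0.53 ± 0.08, adjusted p = 6.53e-06), and Fosl1 did not pass (-0.37 ± 0.24) except without K19R day 10 replicate 1 (-0.77, adjusted p = 0.0287). The Fosb call was lost without K19R day 6 replicate 1 (adjusted p = 0.0959), day 6 replicate 2 (0.0598) or day 10 replicate 1 (0.225), and the Jun call without K19R day 6 replicate 2 (-0.12, adjusted p = 0.238).

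Over this last step the difference between the lines passed for 6 members, all negative, where 39% of all genes tested passed, 24.4% with a positive and 14.6% with a negative difference. It was largest for the 4 Fos genes, at -2.72 ± 0.32 for Fosl1 (edgeR adjusted p = 1.77e-07), -1.75 ± 0.16 for Fosl2 (adjusted p = 1.35e-09), -1.74 ± 0.13 for Fos (adjusted p = 1.1e-10) and -1.71 ± 0.22 for Fosb (adjusted p = 4.7e-07). Atf3 followed at -0.64 ± 0.12 (adjusted p = 0.000121) and Jun at -0.34 ± 0.11 (adjusted p = 0.0112). The Jun difference was lost without FLAG-WT day 6 replicate 1 (adjusted p = 0.0562) or K19R day 6 replicate 2 (-0.18, adjusted p = 0.194). Junb (0.16 ± 0.12) and Jund (-0.25 ± 0.12, adjusted p = 0.11) did not pass. Junb passed without FLAG-WT day 10 replicate 2 (0.30, adjusted p = 0.0445), and Jund passed with library totals only (-0.30, adjusted p = 0.0348), with relative log expression size factors (-0.32, adjusted p = 0.035), with DESeq2 (-0.32, adjusted p = 0.0446) and without FLAG-WT day 10 replicate 1 (-0.34) or K19R day 6 replicate 1 (-0.37).

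**Figure D3:**
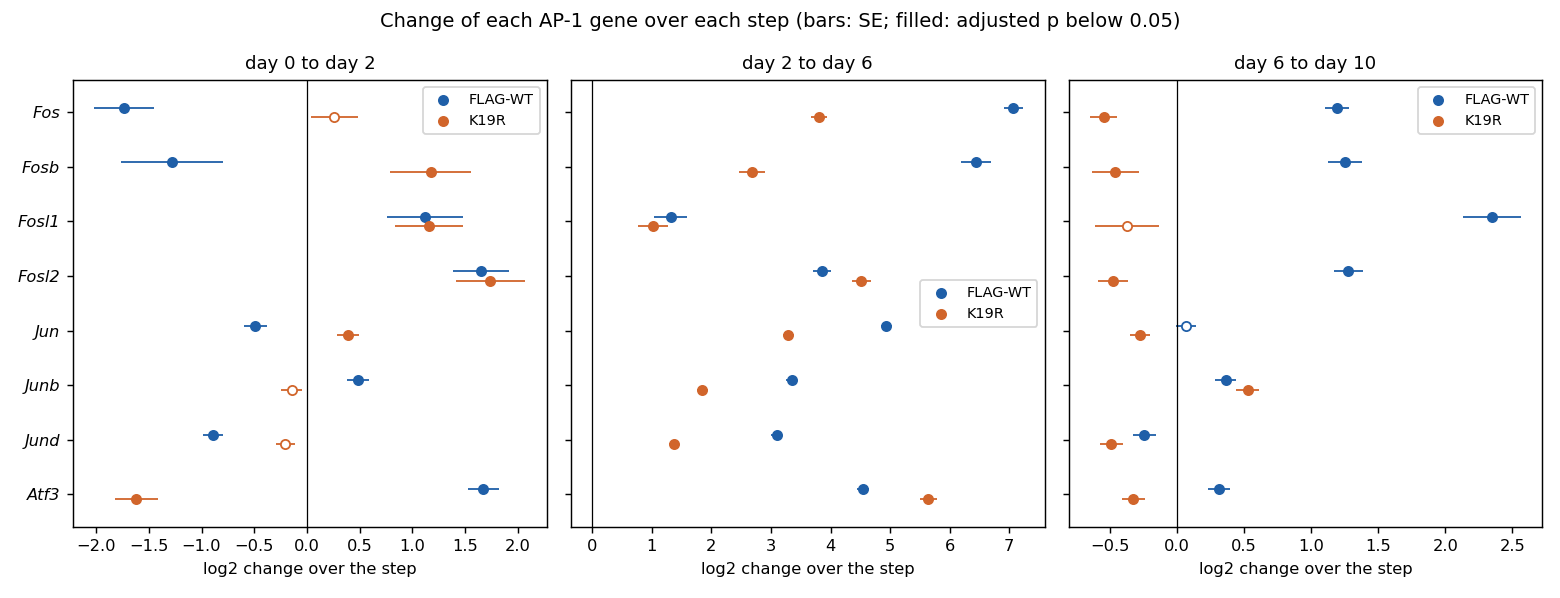
Log2 change of each AP-1 gene over each step in FLAG-WT and K19R, with SE bars; filled points had an edgeR adjusted p below 0.05, and the horizontal scale differs between panels. All points of the middle panel lie right of 0, and in the right panel the 4 Fos genes lie right of 0 in FLAG-WT and left of 0 in K19R.

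Over the whole course from day 0 to day 10, all 8 members rose in each line. In FLAG-WT, where 77.9% of all genes tested passed (37% rose and 40.9% fell), the rises ran from 3.9-fold for Jund (1.96 ± 0.09, edgeR adjusted p = 5.32e-17) to 110-fold for Fosl2 (6.77 ± 0.17, adjusted p = 2.92e-22), with Fos at 92.4-fold and Atf3 at 92.3-fold. In K19R, where 73.9% passed (38.1% rose and 35.8% fell), they ran from 1.6-fold for Jund (0.68 ± 0.09, adjusted p = 1.48e-07) to 55-fold for Fosl2 (5.78 ± 0.21, adjusted p = 7.36e-19), with Fos at 11.5-fold and Atf3 at 13-fold. Jund rose least and Fosl2 most in both lines. With library totals only, the median of all genes shifted by -0.40 in the FLAG-WT course and the share of passing genes that rose went from 47.5% to 36.8%.

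Wildtype mESCs in LIF were compared with FLAG-WT mESCs in LIF and 2i. The line, the medium and the count table all differ between these groups and cannot be told apart. Of the 8 members 3 were higher and 1 lower in the wildtype mESCs, where 64.9% of all genes tested passed, 32.4% as higher and 32.5% as lower. Fosl2 was 8.39-fold higher (3.07 ± 0.22, edgeR adjusted p = 1.48e-12), Junb 2.07-fold higher (1.05 ± 0.10, adjusted p = 2.52e-10) and Fos 1.93-fold higher (0.95 ± 0.19, adjusted p = 6.8e-05). Jund was 4.64-fold lower (-2.21 ± 0.10, edgeR adjusted p = 3.52e-17). Jun (-0.17 ± 0.11), Fosl1 (0.52 ± 0.38), Atf3 (0.01 ± 0.17) and Fosb (-0.82 ± 0.43) did not pass, except that Fosb was lower without FLAG-WT day 0 replicate 2 (-1.35, adjusted p = 0.0102).

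To compare levels between genes, counts were divided by exonic length, which gives a length-scaled CPM (RPKM). Summed over the 8 genes, the level was 73.4 and 73.6 RPKM in FLAG-WT on day 0, 52.4 and 52.0 on day 2, 636 and 628 on day 6 and 668 and 764 on day 10. The K19R sums were 69.3 and 64.8, 57.0 and 63.8, 223 and 258, and 204 and 207 RPKM. Wildtype mESCs had 36.7 and 37.1 RPKM. On day 6 and day 10 every FLAG-WT library was above every K19R library, and on day 0 and day 2 the sums of the lines lay close together.

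The make-up of the sum changed as well. Jund, in spite of the bases shared with the opposite strand, had the highest level per length on day 0 and held 80.4% and 79.6% of the summed RPKM in FLAG-WT on day 0 and 73.9% and 72.9% in K19R. On day 10 it held 32.1% and 32.0% in FLAG-WT and 37.0% and 39.6% in K19R. The 4 Fos genes together held 1.81% and 2.06% of the sum in FLAG-WT on day 0, 6.35% and 7.03% on day 6 and 14.9% and 14.2% on day 10. In K19R their share was 1.91% and 2.04%, then 7.72% and 7.66%, and then 6.91% and 5.81%. On day 6 both K19R libraries had the larger Fos share, and on day 10 both FLAG-WT libraries did. The summed Jun genes exceeded the summed Fos genes 4.33- and 4.5-fold in FLAG-WT on day 10 and 11.7- and 14.3-fold in K19R, and 53.0- and 46.6-fold and 49.7- and 46.9-fold on day 0. The share of Atf3 in the sum was 9.37% and 10.7% in FLAG-WT on day 2 against 1.03% and 0.973% in K19R. These shares are described without a test.

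**Figure D4:**
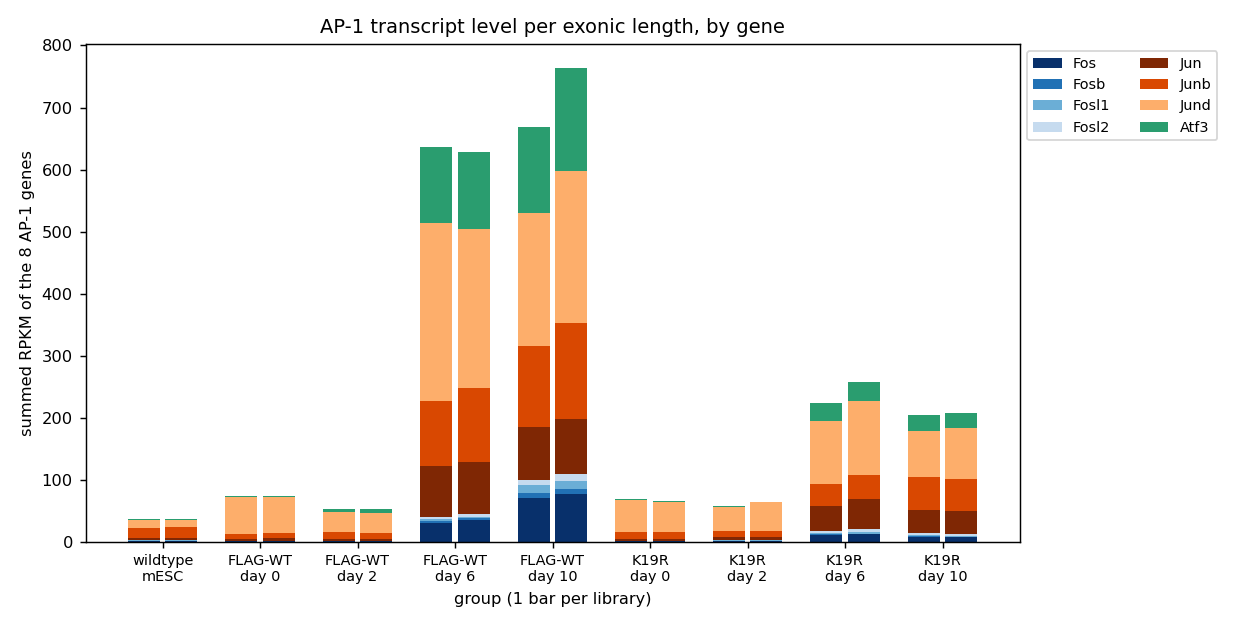
Summed RPKM of the 8 AP-1 genes, split by gene, with a bar for each library of each group. The FLAG-WT bars of day 6 and day 10 lie between 628 and 764, and the K19R bars of the same days between 204 and 258.

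The other genes of the pathway were read from lists. Their counts, here and below, stand against the share of all genes tested that passed. For K19R against FLAG-WT that share was 10.5% on day 0, 41.8% on day 2, 58.5% on day 6 and 58.4% on day 10. The shares for the steps are given with the AP-1 genes above. A count near its share says nothing particular about a list. Of 18 immediate early genes outside AP-1, 3 were higher and 5 lower in K19R on day 0, 11 higher and 2 lower on day 2, 3 higher and 11 lower on day 6, and 0 higher and 14 lower on day 10. Their median change was 0.59 on day 2 and -1.65 on day 10, beside 0.39 and -2.23 for the AP-1 genes. The largest changes that passed on day 10 were those of Ctgf (-3.53 ± 0.12, edgeR adjusted p = 2.17e-18), a secreted matricellular protein, Dusp1 (-3.47 ± 0.11, adjusted p = 1.93e-18), a phosphatase that turns off MAP kinases, and Nr4a1 (-3.00 ± 0.11, adjusted p = 2.43e-17), an orphan nuclear receptor. Dusp1 stood at 237 and 311 CPM in FLAG-WT and at 26.3 and 23.0 CPM in K19R. On day 2 the largest were Egr2 (2.82 ± 0.72), Egr4 (2.11 ± 0.65) and Egr3 (1.57 ± 0.39), which encode zinc finger factors, all from counts of at most 43 per library. On day 0 they were Egr1, Myc (-0.94 ± 0.14) and Ier5 (-0.66 ± 0.18). On day 6 they were Egr4 (1.87 ± 0.56), Dusp1 (-1.55 ± 0.11) and Nr4a3 (-1.55 ± 0.55).

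Egr1, the immediate early gene most often read out beside Fos, differed from it in the stem cells. It was at 0.334 and 0.719 CPM in FLAG-WT and 0.149 and 0.047 CPM in K19R on day 0 (log2 change -2.30 ± 0.59, edgeR adjusted p = 0.0117). These day 0 levels rest on few counts, which limits the precision of the changes taken from them. In the wildtype mESCs Egr1 was at 29.6 and 29.1 CPM (5.77 ± 0.18 over FLAG-WT, edgeR adjusted p = 2e-20). The line, the medium and the count table all differ in that comparison and cannot be told apart. On day 2 Egr1 had already reached 18.9 and 18 CPM in FLAG-WT, a rise of 5.10 ± 0.19 from day 0 (edgeR adjusted p = 7.8e-18), when Fos and Fosb had fallen. In K19R it had reached 20.9 and 24.9 CPM. Over the same step 8 of the 18 genes rose and 7 fell in FLAG-WT, and 9 rose and 5 fell in K19R. From day 2 to day 6, 13 of the 18 rose and 3 fell in FLAG-WT, and 9 rose and 4 fell in K19R. Cyr61, which like Ctgf encodes a secreted matricellular protein, rose most in both lines (7.0 ± 0.12 and 6.47 ± 0.12). From day 6 to day 10, 12 rose and 0 fell in FLAG-WT, whereas 1 rose and 12 fell in K19R.

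Of 13 kinases and factors upstream of AP-1, 5 were higher and 4 lower in K19R on day 2, 3 higher and 9 lower on day 6, and 3 higher and 7 lower on day 10; on day 0 they were 1 and 1. Srf, which encodes the serum response factor that binds the Fos promoter, was higher in K19R on day 2 (0.84 ± 0.08, edgeR adjusted p = 5.17e-09), at 60.9 and 60.9 CPM against 33.5 and 34.6, and lower on day 10 (-1.48 ± 0.08, adjusted p = 3.76e-14), at 48.0 and 49.1 against 125 and 145. Mapk3, which encodes the kinase ERK1, was higher in K19R on day 0 (0.33 ± 0.08) and day 2 (0.63 ± 0.07) and lower on day 6 (-1.13 ± 0.07) and day 10 (-0.67 ± 0.07). Mapk8, which encodes the kinase JNK1, was lower on day 0 (-0.32 ± 0.09), day 6 (-0.81 ± 0.08) and day 10 (-1.45 ± 0.08). Elk3, an ETS factor gene, was lower on day 2 (-0.56 ± 0.17) and higher on day 6 (1.19 ± 0.23) and day 10 (1.5 ± 0.18). Mapk10, a JNK gene of few counts, was higher on day 2 (1.46 ± 0.40), day 6 (2.66 ± 0.57) and day 10, when FLAG-WT had 1 count over both libraries and K19R had 9 and 6, too few for a fold.

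Among 12 further bZIP genes whose products can share partners or sites with AP-1, 11 were tested. In K19R 0 were higher and 1 lower on day 0, 2 and 4 on day 2, 0 and 7 on day 6, and 4 and 4 on day 10. Maff, a small Maf gene, was lower on day 6 (-1.42 ± 0.10) and day 10 (-2.18 ± 0.10, edgeR adjusted p = 1.08e-15), at 137 and 159 CPM in FLAG-WT and 31.3 and 34.0 in K19R on day 10. Maf, a large Maf gene known from endoderm among other tissues, was lower on day 2 (-3.05 ± 0.18) and day 6 (-1.68 ± 0.14) and higher on day 10 (0.36 ± 0.13), and Jdp2, which encodes a Jun dimerization protein that represses AP-1 sites, was lower on day 2 (-1.61 ± 0.12), day 6 (-1.01 ± 0.10) and day 10 (-1.41 ± 0.10). Others among the largest changes were Mafa on day 0 (-1.26 ± 0.25), Batf3 on day 2 (1.67 ± 0.56) and Mafk on day 10 (-1.27 ± 0.08).

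Textbook AP-1 target genes did not move as a block. Of 13 listed genes 11 were tested, and on day 6 5 were higher and 4 lower in K19R, and on day 10 3 higher and 6 lower; on day 2 the counts were 2 and 4, and on day 0 0 and 3. Plau, the urokinase gene, was lower on day 6 (-1.76 ± 0.12) and day 10 (-5.04 ± 0.16, edgeR adjusted p = 9.47e-19), at 66.5 and 72.4 CPM in FLAG-WT against 2.02 and 2.19 in K19R. In the other direction on day 10 went Vim, a mesenchymal intermediate filament gene (3.90 ± 0.09, adjusted p = 2.15e-21), at 193 and 186 CPM in K19R against 11.7 and 13.7, and the metalloproteinase gene Mmp9 (6.12 ± 0.35), at 22.8 and 15.0 CPM against 0.316 and 0.216. Along the FLAG-WT course from day 0 to day 10, when all 8 AP-1 genes rose, 4 of the 11 rose and 5 fell, and in K19R 6 rose and 4 fell. Spp1, the osteopontin gene, was lower in K19R on day 2 (-1.47 ± 0.10) and higher on day 6 (1.86 ± 0.12) and day 10 (3.02 ± 0.14). Vim was lower on day 0 (-0.28 ± 0.07) and day 2 (-1.02 ± 0.07), Plaur, the urokinase receptor gene, likewise (-0.49 ± 0.15 and -0.94 ± 0.09), and Plaur was also lower on day 6 (-1.19 ± 0.08) and day 10 (-2.24 ± 0.09), while Vim was higher on day 6 (0.84 ± 0.08). Ccnd1, the cyclin D1 gene, changed sign between days: it was lower in K19R on day 0 (-0.62 ± 0.08), higher on day 2 (0.52 ± 0.08) and day 6 (1.33 ± 0.10), and lower on day 10 (-0.73 ± 0.09). The collagenase gene Mmp13 passed as higher on day 6 with 9 and 4 counts in K19R and 0 in FLAG-WT.

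Atf3 is also a target of the integrated stress response, whose 7 listed genes on day 2 were lower in K19R in 6 cases and higher in 0. Chac1, a glutathione-degrading enzyme gene, was at 70.8 and 75.7 CPM in FLAG-WT and 2.59 and 2.85 in K19R (-4.75 ± 0.18, edgeR adjusted p = 4.18e-17), and Trib3 (-3.02 ± 0.11, adjusted p = 8.42e-18) and Ddit3, which encodes the factor CHOP (-2.04 ± 0.28, adjusted p = 1.65e-06), were lower too. From day 2 to day 6 in FLAG-WT, Chac1 fell (-4.5 ± 0.19) while Atf3 rose 23.3-fold and Ddit3 rose (3.45 ± 0.21); 2 of the 7 genes rose and 4 fell. On day 10, 4 of the 7 were lower in K19R and 2 higher, with the largest changes for Ddit3 (-2.87 ± 0.21, adjusted p = 1.29e-11), the phosphatase regulator gene Ppp1r15a (-1.47 ± 0.12) and Atf4 (-0.89 ± 0.09), the central factor of the response. On day 6, 5 were lower and 2 higher, led by Ddit3 (-2.49 ± 0.19), Ppp1r15a (-2.04 ± 0.12) and Trib3 (-1.14 ± 0.10), and on day 0 Trib3 alone passed (0.47 ± 0.12). Chac1, so much lower in K19R on day 2, was higher there on day 6 (0.78 ± 0.23) and day 10 (0.68 ± 0.18).

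Genes of handling and of other cell types were read beside the AP-1 genes. Of 4 heat shock genes, which can be induced by handling before lysis, 3 rose and 0 fell from day 2 to day 6 in FLAG-WT. In K19R 3 of them rose and 1 fell. In K19R against FLAG-WT, 3 were lower and 0 higher on day 6, and 3 were lower and 1 higher on day 10. From day 6 to day 10 none of them passed in FLAG-WT by edgeR, nor had an unadjusted p under 0.05, and 2 rose and 2 fell in K19R. Their summed level was 233 to 241 CPM in FLAG-WT on day 2, 535 to 624 on day 6 and 508 to 808 on day 10, and 298 to 327, 304 to 363 and 367 to 398 CPM in K19R. None of the 4 was at 0 in any group. Hspa1a had 49.3 and 61.1 CPM in FLAG-WT on day 6 and 42.3 and 108 on day 10, beside 17.1 and 27.3 and 5.24 and 4.07 CPM in K19R. The K19R difference was -1.30 ± 0.25 on day 6 (edgeR adjusted p = 7.5e-05) and -4.00 ± 0.30 on day 10 (adjusted p = 2.1e-11), and that of its near-identical copy Hspa1b, whose reads the counting could split, was -1.20 ± 0.22 and -3.20 ± 0.25. Dnajb1 differed by -1.06 ± 0.09 and -0.76 ± 0.09, and Hsph1 was higher in K19R on day 10 (0.45 ± 0.07). In the second FLAG-WT library of day 10, where Hspa1a was at 108 CPM, all 8 AP-1 genes were also higher than in the first, from 49.6 against 48.9 CPM for Fosb to 359 against 298 for Atf3. With either of the 2 libraries left out, all 8 members stayed lower in K19R on day 10. Hspa1a was higher in each of the 2 than in both K19R libraries, so this does not test the part of the heat shock genes.

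**Figure D5:**
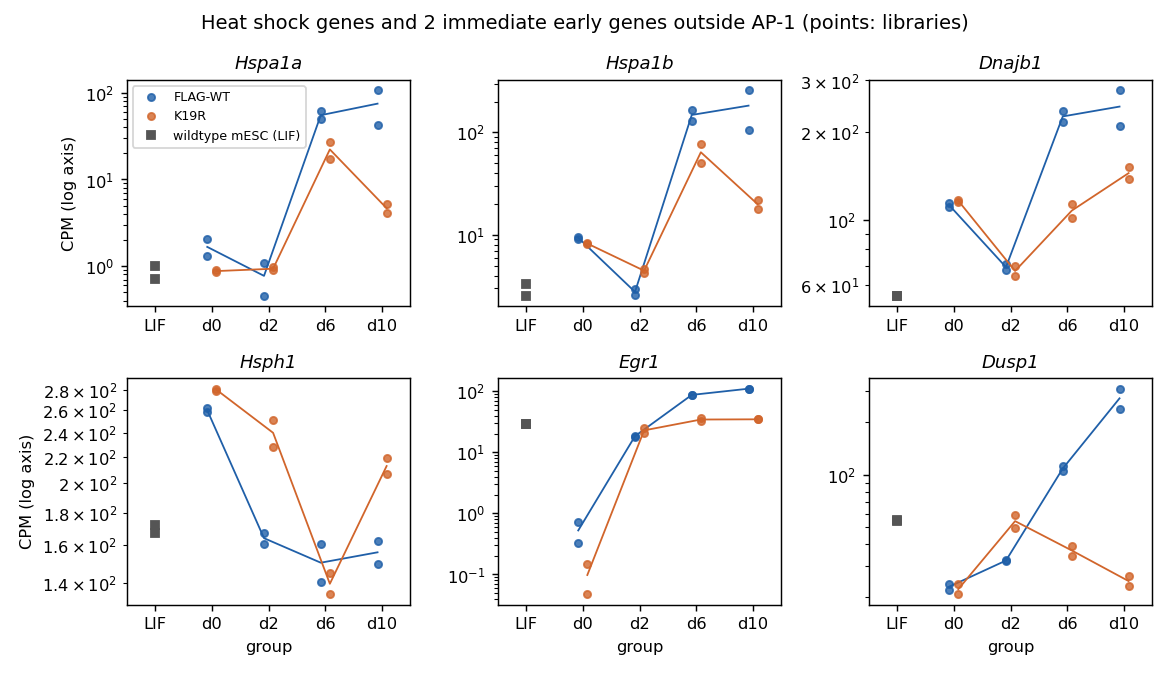
CPM (log axis) of 4 heat shock genes and of the immediate early genes Egr1 and Dusp1 in the wildtype mESCs (LIF) and by day (d); points are libraries and lines join means of 2. Hspa1a spans 42.3 to 108 CPM in FLAG-WT on day 10 and 4.07 to 5.24 CPM in K19R, while Hsph1 at thon day is higher in K19R.

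The endoderm markers moved with the AP-1 genes in some comparisons and against them in others. Of the 8, 7 rose and 1 fell from day 2 to day 6 in FLAG-WT and 8 rose in K19R, and 7 were lower in K19R on day 6. Their summed CPM was 437 to 440 in FLAG-WT and 59.5 to 62.3 in K19R on day 2, and 10113 to 10368 and 3528 to 3923 on day 6; Alb was at 0 in both lines on day 2. On day 2 they differed: 6 endoderm markers were lower in K19R and 0 higher, while 4 AP-1 genes were higher and 2 lower. From day 6 to day 10 in K19R all 8 endoderm markers rose, with a median log2 change of 1.47, while 6 of the 8 AP-1 genes fell. On day 10, when all 8 AP-1 genes were lower in K19R, 3 of the endoderm markers were lower, 1 was higher and 4 did not pass. Their summed CPM on that day was still lower in K19R, at 14344 to 15769 against 26109 to 26995 in FLAG-WT. The 6 fibroblast and mesenchyme markers, a source of AP-1 RNA in many tissues, summed to 25.4 to 28.3 CPM in FLAG-WT and 64.2 to 71.3 in K19R on day 10, with 4 higher and 2 lower in K19R. All 5 pluripotency markers were higher in K19R on day 6 and on day 10, whereas on day 2 there were 3 lower and 0 higher. Their summed CPM on day 6 was 535 to 593 in K19R against 133 to 170 in FLAG-WT. On day 10 it was 468 to 588 in K19R against 51.5 to 53.2 in FLAG-WT. The part of the heat shock genes, the endoderm share or the pluripotent share in the AP-1 differences was not tested.

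Across the 16 FLAG-EED libraries, the pairs of members correlated (Pearson's r of log2 CPM) from 0.736 for Fosl1 and Jund to 0.987 for Fos and Fosb. These values describe libraries that fall into early and late levels and share their days and lines, so most genes that rise late correlate. The 3 genes most like each member by the same measure were Slc25a17 (0.991), Abca7 (0.991) and Fmnl3 (0.989) for Fos, and Fos (0.987), Litaf (0.983) and Tpm4 (0.983) for Fosb. For Fosl1 they were Afap1l1 (0.966), Gramd4 (0.963) and Mmp24 (0.959), and for Fosl2 Samd4 (0.994), Tef (0.992) and Krt18 (0.991). Dnm1 (0.994), Stxbp6 (0.992) and Acot2 (0.991) were nearest to Jun, Sec24c (0.994), Pdlim1 (0.993) and Camk2d (0.993) to Junb, Setd6 (0.990), Adipor1 (0.988) and Dennd5a (0.986) to Jund, and Ggta1 (0.990), Pag1 (0.990) and Stom (0.987) to Atf3. Fosb was the only member with another member among its 3.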

How the data were processed

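Per the file headers, the authors counted read pairs per gene over GENCODE exons of GRCm38, without a strand option, using featureCounts (1.6.3 in the FLAG-EED table and 1.6.4 in the wildtype table). The deposited counts are raw and separate for each library. STAR 2.7.0c, Trim Galore 0.6.0, FastQC 0.11.7 and bcl2fastq 2.17 stand in the submitters' processing notes. The deposited exonic length per gene, given by the authors beside the counts, was used only for RPKM.

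The 8 members, the other gene lists and the tests were chosen with earlier results of these data known. In edgeR 4.0.16 under R 4.3.3, filterByExpr removed low genes (minimum count 10, minimum total 15), TMM gave the scaling, and glmQLFit was run with a coefficient for each group. The fit of 16 libraries had 8 residual degrees of freedom and that of 18 libraries 9, and the biological coefficient of variation was 0.062. Each of 16 comparisons was tested with glmQLFTest, with p adjusted over all genes tested. The SE was taken as the size of the log2 change divided by the root of its F. CPM used the scale of the 18 libraries, which differed from that of the 16 by at most 1.25%. All 8 members were named in each comparison; from each other list, at most 3 that passed with the largest changes were named for K19R against FLAG-WT, and other genes were named after their values were seen. A gene that the rule also named is not reported here. Likeness was Pearson's r of log2 CPM with a prior count of 2.

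The test was checked on simulated counts for K19R against FLAG-WT at day 2 (18705 genes). It recovered 79% of 100 genes changed by 1 and 100% of 100 changed by 2 on the log2 scale. Of its calls 2.19% were false. The counts were drawn with the spread of the fit itself and with all other genes unchanged, whereas 41.8% of genes passed in the data. The check therefore does not cover the scaling or a spread unlike the model. The changed genes were drawn only among genes above a floor on the mean count. Fos and Fosb lay below that floor on day 2, so the recovery does not cover their early changes. Replicates differed by more than sampling noise in each group (chi-square per degree of freedom 2.36 to 12.3), so none was counted as a repeat. Alternatives were DESeq2 1.42.0, relative log expression size factors, library totals only, no filter, the 4 libraries of a comparison of 2 groups alone, a replicate block, and leaving out each library.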

Additional observations from a re-analysis of the deposited data

Results flagged for a closer look

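The difference between the lines passed its test in 19 cases over the 3 steps, and each is listed here because the same step moved the gene differently in K19R and FLAG-WT. Values are the K19R change minus the FLAG-WT change on the log2 scale, from edgeR's quasi-likelihood test.

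From day 0 to day 2, Fos (1.99), Fosb (2.45), Jun (0.88) and Jund (0.69) changed more upward in K19R, and Junb (-0.63) and Atf3 (-3.29) more upward in FLAG-WT. For Atf3, Jun and Fosb the change passed in both lines and in opposite directions. Atf3 rose from 3.92 and 3.20 to 10.6 and 12 CPM in FLAG-WT and fell from 4.51 and 3.39 to 1.26 and 1.34 CPM in K19R. Jun fell from 11.7 and 12.5 to 8.71 and 8.54 CPM in FLAG-WT and rose from 11.5 and 10.9 to 15.1 and 14.3 CPM in K19R. Fosb likewise fell in FLAG-WT and rose in K19R, from few counts and with calls that were lost without some libraries.

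From day 2 to day 6, Fos (-3.26), Fosb (-3.76), Jun (-1.65), Junb (-1.5) and Jund (-1.73) rose less in K19R, while Atf3 (1.10) and Fosl2 (0.67) rose more.

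From day 6 to day 10, Fos (-1.74), Fosb (-1.71), Fosl1 (-2.72), Fosl2 (-1.75), Jun (-0.34) and Atf3 (-0.64) all differed in the same direction, with the 4 Fos genes rising in FLAG-WT. In K19R Fos, Fosb and Fosl2 fell over that step, and Fosl1 did not pass.

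These 19 share groups: the day 2 libraries enter the first and the second step and the day 6 libraries the second and the third, so a low or high day 2 level gives differences of opposite sign on either side of it.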

How the results depend on the processing

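The 103 tests of members that passed were recomputed. All 103 passed in the same direction with library totals only, without the filter and with a replicate block, as did 102 with DESeq2 and 102 with relative log expression size factors. With the 4 libraries of a comparison alone, 83 of 83 did, and with a library left out 463 of 488; the calls lost are given beside each result. The count of members that differed at day 0 went from 1 to 2 (Junb higher and Jund lower) with library totals only, without the filter and with 4 libraries alone. Over all genes, that comparison had 2003 calls, 4014 with 4 libraries alone and 845 to 955 with a library left out. The labels give same-numbered libraries a shared number and nothing more. Their deviations from group means correlated at -0.030 to 0.045 over 36 pairs of groups. A shared preparation with a small effect, or an effect on few genes, could leave such values, so this does not settle whether they were paired. With the replicate block, the members called in K19R from day 0 to day 2 went from 5 to 6 (Jund lower, adjusted p = 0.0472), and no other such count changed.

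Only changes that had not passed turned their sign. At day 0, leaving out a library gave -1.15 to 0.22 for Fosb, -0.031 to 0.79 for Fosl1 and -0.070 to 0.35 for Atf3. At day 6 it gave -0.19 to 0.085 for Fosl2 and -0.22 to 0.45 for Fosl1, and Fosl2 was at 0.31 with library totals only and 0.014 with 4 libraries alone. For the line difference from day 0 to day 2 it gave -0.44 to 0.38 for Fosl1 and -0.16 to 0.31 for Fosl2, and from day 2 to day 6 -0.57 to 0.099 for Fosl1, which was 0.080 with library totals only. In wildtype mESCs against FLAG-WT, Atf3 ran from -0.13 to 0.16, with -0.050 without the filter and -0.00040 with the replicate block, and Fosb from -1.35 to 0.012. The causes were not tested. Fosb, Fosl1 and Fosl2 had few counts before day 6, which limits the precision of their early changes.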
